A study of Mus musculus with 9 samples.

Results

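The clustered histone genes of the mouse were examined in the trigeminal ganglion, the sensory ganglion that serves the jaw and face. Members were the protein-coding genes of the deposited mRNA table whose symbol, in GENCODE release M21, starts with Hist1h, Hist2h, Hist3h or Hist4h. There were 67 such genes among 21835 genes of the table, with 75 annotated transcripts. They comprised 6 genes for the linker histone H1, 18 for H2A, 18 for H2B, 12 for H3 and 13 for H4. By cluster, 54 were Hist1 genes on chromosome 13, 10 were Hist2 genes on chromosome 3, 2 were Hist3 genes on chromosome 11 and 1 was a Hist4 gene on chromosome 6. The ganglia came from male wild-type C57BL/6 mice that had received an injection into the temporomandibular joint (TMJ) under isoflurane. Control mice (saline) received 10 µl of saline and, per the labels, were sampled on day 3. The other mice received 10 µl of complete Freund's adjuvant (CFA, an oil emulsion of killed mycobacteria that inflames the joint) at 5 mg/ml and were sampled on day 3 (CFA3D) or day 6 (CFA6D). There were 3 libraries per group, each a pool of ganglia of 3 mice, so p-values below measure the spread between pools. Because no saline library was taken on day 6, CFA and time cannot be told apart in CFA6D against saline.

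Clustered histone genes are known as replication-dependent. They are transcribed when a cell copies its DNA, have no introns in their classical form, and give the only mRNAs of animal cells known to end in a conserved stem-loop in place of a poly(A) tail. The stem-loop is bound by stem-loop binding protein (SLBP), and the pre-mRNA is cut just behind it with the help of the U7 small nuclear RNA. Many of these genes can also be read through the stem-loop to a downstream poly(A) site, and such polyadenylated forms are found in cells that no longer divide, neurons included. H2A, H2B, H3 and H4 form the core of the nucleosome, and H1 binds the DNA between nucleosomes.

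The stem-loop is the sequence that sets these mRNAs apart and decides which library preparations keep them, so its forms are shown first. A search of the 150 bases after the stop codon on the transcript strand looked for a 16-base consensus that holds the first and the third forms below and allows any base at the stem positions in which they differ. With at most 1 mismatch, it found a match in 63 of the 67 genes. The same search found one in 2 of 21545 other protein-coding genes, H2afx and H2bfm, which are themselves histone genes. In the forms below the bases of the loop are in capitals and those of the stem in lower case, written as DNA from 5′ to 3′. The commonest form was shared by 41 genes and included H1, H2A, H2B and H3 genes, whereas the form with a C-G pair in place of a T-A pair in the stem was found in 8 genes, all for H4.
Stem-loop of 41 genes: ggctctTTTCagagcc
Stem-loop of 9 genes: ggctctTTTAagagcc
Stem-loop of 8 H4 genes: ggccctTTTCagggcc
Stem-loop of Hist1h4i and Hist2h4: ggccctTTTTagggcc
Stem-loop of Hist1h4a: ggccctTCTCagggcc
Stem-loop of Hist1h2an: ggctctTTTCagagct
Stem-loop of Hist2h2ac: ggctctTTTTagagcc

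The annotated 3′ ends split the transcripts by form. Of the 75 member transcripts, 40 ended near the stem-loop, either before its end or less than 100 bases behind it. A further 27 ran at least 100 bases past it, and 8 had no match. Some of the 40, such as those of Hist1h1b and Hist1h2bn, ended before the stem-loop, so their annotation lacks it. At least 1 long form was annotated for 25 genes. Taking for each gene the transcript with the highest mean level, 39 genes had a short leading form, 23 a long one and 5 one without a match. Only Hist1h2be, Hist1h2bp, Hist1h2bq, Hist1h2br and Hist2h3c1 had more than 1 annotated transcript. For every other gene the annotation sets the form and the levels choose nothing. For example, the leading transcript of the linker histone gene Hist1h1c (chr13:23738808-23740367, plus strand, GRCm38) ran 840 bases past the stem-loop, and that of Hist1h4d (chr13:23581598-23582735, plus strand) ran 770 bases past it.

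The promoters also differed by histone class. RefSeq promoters of GRCm38.p6, which span the 250 bases before and 50 bases after the start, were matched for 62 members. Each motif was searched on both strands. The CCAAT box (CCAAT) was found in 53 of 62 member promoters (85.5%) against 37.8% of 27025 promoters of all genes, in every matched H1, H2A, H2B and H3 gene and in 3 of 12 H4 genes. The TATA box (TATAAA) was found in 35 (56.5%), against 14.1% of all. The octamer ATTTGCAT, known from H2B promoters, was found in 7 H2A and 6 H2B genes and in no other member, 20.97% of members against 1.74% of all. The hexamer GGTCCG, part of an element known from H4 promoters, was found in 11 of 12 H4 genes, against 8.34% of all promoters. It was also found in 1 H2B and 1 H3 gene. The heptamer AAACACA of H1 promoters was found in 5 of 6 H1 genes, against 7.25% of all. It was also found in 2 H2A and 2 H2B genes. A match is a description of the letters and not of a bound site. The last 120 bases before the start are shown for 1 gene per class, with every match to these 5 motifs, on either strand, in capitals.
Hist1h1b (H1, chr13:21780626-21780745, minus strand): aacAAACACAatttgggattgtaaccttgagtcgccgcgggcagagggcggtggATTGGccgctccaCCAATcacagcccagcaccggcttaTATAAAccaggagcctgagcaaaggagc
Hist1h2ad (H2A, chr13:23574261-23574380, plus strand): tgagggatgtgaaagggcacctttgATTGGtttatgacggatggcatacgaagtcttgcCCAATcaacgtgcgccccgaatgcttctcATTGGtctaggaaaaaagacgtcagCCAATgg
Hist1h2bm (H2B, chr13:21721924-21722043, plus strand): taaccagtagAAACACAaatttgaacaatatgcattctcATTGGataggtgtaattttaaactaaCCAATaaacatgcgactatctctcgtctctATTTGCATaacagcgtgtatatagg
Hist1h3d (H3, chr13:23575643-23575762, plus strand): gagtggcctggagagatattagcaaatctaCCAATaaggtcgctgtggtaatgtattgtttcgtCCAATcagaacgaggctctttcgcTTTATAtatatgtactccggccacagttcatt
Hist1h4m (H4, chr13:21811626-21811745, plus strand): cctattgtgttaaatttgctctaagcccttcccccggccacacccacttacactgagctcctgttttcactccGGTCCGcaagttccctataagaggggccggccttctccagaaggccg

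Levels are given as FPKM, fragments per kilobase of transcript and per M (mega) fragments, summed over the transcripts of a gene. The steps in the low values corresponded to 30.03 M to 42.2 M read pairs per library. On that reckoning, a single read pair over 1 kb added between 0.0237 and 0.0333 FPKM. Sensory neuron and satellite glia markers were found in every library. The summed FPKM of 8 sensory neuron markers was 1251 to 1871, and that of 4 satellite glia markers was 234 to 335. CFA6D replicate 6 stood apart from the other libraries on the first principal component (66.4, against -21.4 to 3.68, with 29.0% of the variance), and saline replicate 3 on the second (-45.8, with 18.4%). All 9 of the neutrophil and marrow granule markers, all 4 osteoblast markers and all 3 tested B cell markers were highest in CFA6D replicate 6, each at no less than 2 times the median of the other 8 libraries. Over all genes tested, the share was 5.54%. The summed FPKM of the granule markers there was 2767, against 26.2 to 143 in the other libraries. Pituitary markers summed to 10606 in saline replicate 3, 1113 in CFA6D replicate 4 and 403 in CFA6D replicate 5, against at most 99.2 in the other libraries. The comparisons between groups that involve CFA6D are therefore given with and without CFA6D replicate 6.

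Clustered histone mRNAs were abundant in the ganglion. The 67 genes together gave 1020, 974 and 954 FPKM in saline replicates 1 to 3, 834, 897 and 944 FPKM in CFA3D replicates 1 to 3, and 791, 753 and 3009 FPKM in CFA6D replicates 4 to 6. The sum was highest in CFA6D replicate 6, and apart from it the 5 CFA libraries all lay below the 3 saline libraries. Without Hist2h2aa1 and Hist2h2aa2, a near-identical pair discussed below, the sums were 1018, 903 and 954 FPKM in saline, 765, 858 and 867 FPKM in CFA3D, and 717, 753 and 2860 FPKM in CFA6D, in the same order. This total is not independent of the members' own values and was not tested.

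H4 genes gave 44.7% of the member sum over the 9 libraries, H2A genes 18.5%, H2B genes 15.8%, H3 genes 12.9% and H1 genes 8.05%. The Hist1 cluster gave 85.1%. The 20 genes with the highest mean gave 71.9% and included 8 of the 13 H4 genes. The most abundant was Hist1h4h (chr13:23531050-23531519, plus strand), an H4 gene, with 154, 139 and 161 FPKM in saline, 119, 130 and 145 FPKM in CFA3D, and 124, 130 and 239 FPKM in CFA6D. It was followed by the H4 genes Hist1h4d (66.6 ± 5.01 FPKM in saline, SD, n = 3) and Hist1h4c (60.0 ± 7.41 FPKM) and by Hist1h1c (60.6 ± 3.76 FPKM), which encodes the linker histone H1.2. The spreads of these last 3 genes overlapped. Of the H3 genes the highest was Hist1h3e, with 34.0 ± 3.16 FPKM in saline. Leaving aside Hist2h2aa1, the highest H2A gene was Hist2h2ac, with 31.6 ± 2.67 FPKM, and of the H2B genes it was Hist1h2bc, with 30.4 ± 1.16 FPKM.

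At the other end, 4 genes stayed under the mean of 0.1 FPKM required for testing. Hist1h2ba, the testis form of H2B, had at most 0.23 FPKM in any library. Hist2h3b was listed above 0 in saline replicate 3 (0.0153 FPKM) and CFA6D replicate 6 (0.138 FPKM), and Hist2h2bb in the same libraries (at most 0.0406 FPKM). Hist1h2aa was listed at 0 in all 9 libraries. Hist1h1t, the testis linker histone, passed the filter with 0.0289 to 0.301 FPKM. The other 63 members entered the tests.

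**Figure D1:**
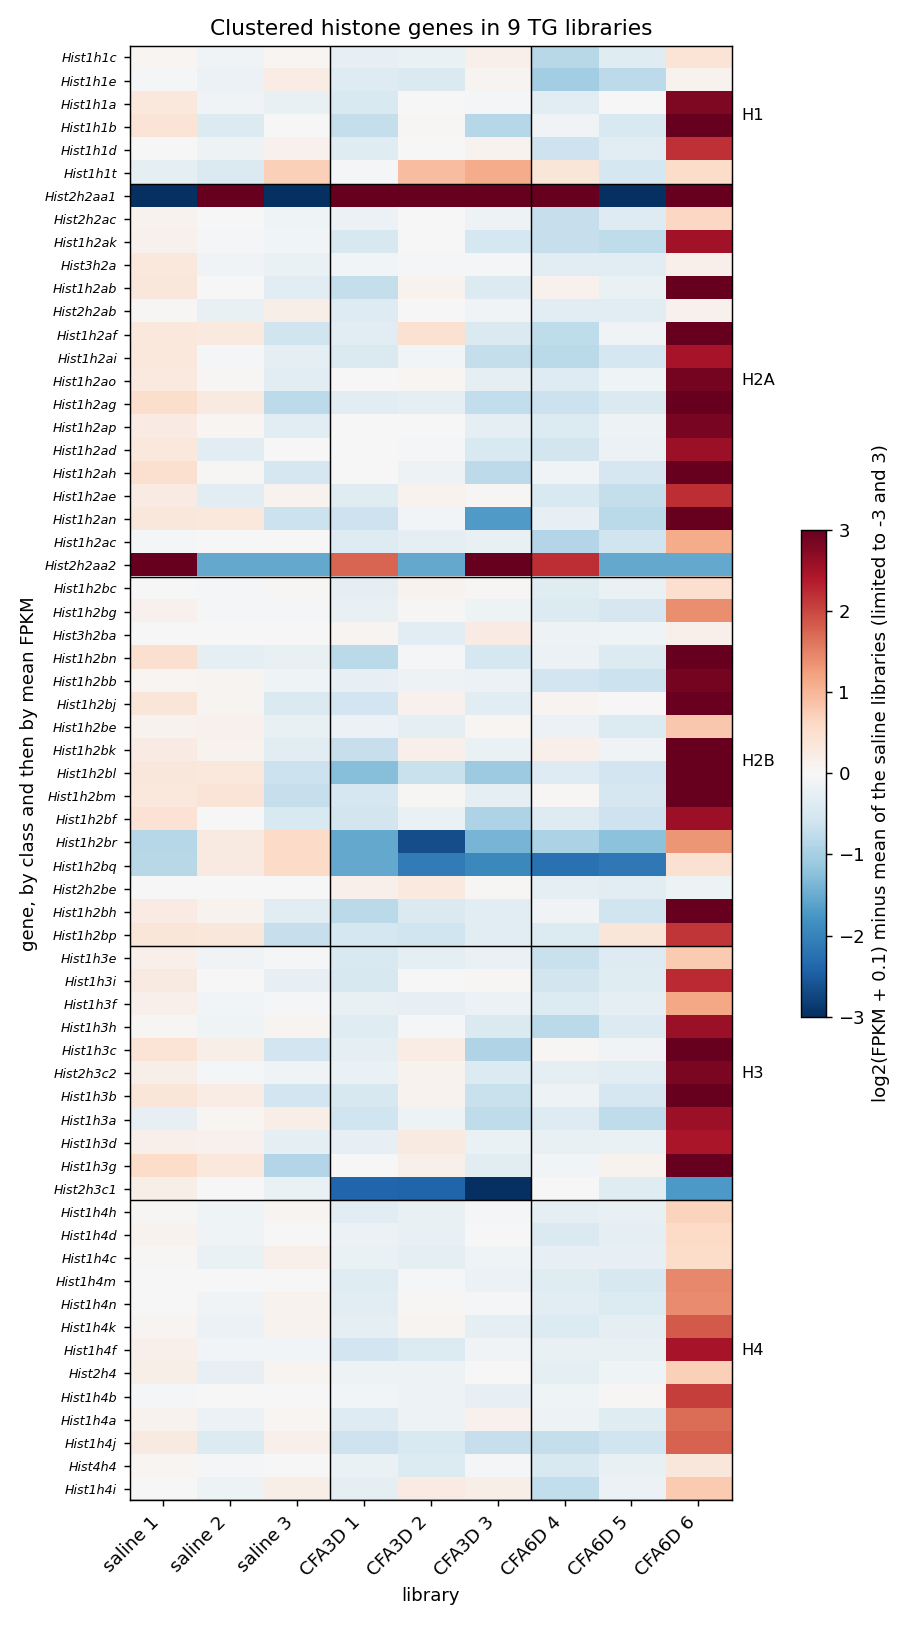
Heat map of the tested members (rows) in the 9 libraries (columns). Colour gives log2(FPKM + 0.1) minus the mean of the saline libraries, limited to 3 in either direction. The column of CFA6D replicate 6 is raised in most rows, whereas the other 2 CFA6D columns lie below saline in most rows.

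CFA6D replicate 6 carried more clustered histone mRNA than any other library. It was the highest of the 9 libraries in 54 of 63 members, against 17.5% of all 16110 genes tested. It was at least 2 times the median of the other 8 libraries in 45 members (5.54% of all genes) and at least 5 times in 33 (1.96% of all genes). The median ratio of this library to the median of the others was 5.21 over members. These are values of 1 pool of mice and have no replicate check.

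The ratio differed widely among members. Hist1h3c, an H3 gene, had the highest ratio at 20.1. It was measured at 105 FPKM in CFA6D replicate 6 and at 2.82 to 7.13 FPKM in the other 8 libraries. Hist1h2af, an H2A gene, was measured at 54.7 FPKM against 2.32 to 5.56 FPKM, a ratio of 15.9. Hist1h1b, which encodes the linker histone H1.5 and whose sequence is unique among transcripts, was measured at 26.7 FPKM against 1.34 to 3.41 FPKM, a ratio of 12.6. The ranges did not overlap for any of these genes. The H3 gene Hist1h3b (13.8), the H2A gene Hist1h2ab (13.6) and the H2B gene Hist1h2bl (13.4) followed.

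The members with the very highest means stood less far apart in that library. The ratio was 1.78 for Hist1h4h, 1.67 for Hist1h4d, 1.69 for Hist1h4c and 1.48 for Hist1h1c. It was 1.31 for Hist1h1e, the gene of the linker histone H1.4. Others of the 20 most abundant members had higher ratios, such as 6.26 for Hist1h4f and 10.98 for Hist1h2bn. The ranking uses the mean of all 9 libraries, CFA6D replicate 6 included. The 9 members that were not highest in CFA6D replicate 6 were Hist2h2aa2, Hist2h3c1, Hist2h2be, Hist2h2ab, Hist1h1e, Hist1h1t, Hist3h2a, Hist1h2bq and Hist3h2ba. For Hist3h2ba, an H2B gene outside the large clusters, the value was 22.7 FPKM in that library and 16.5 to 24.2 FPKM in the others.

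By histone class the median ratio was 7.19 for H3, 6.95 for H2A, 6.89 for H2B, 3.42 for H1 and 2.82 for H4. By cluster it was 6.35 for Hist1, 1.45 for Hist2 and 1.15 for Hist3, and the single Hist4 gene, Hist4h4, had 1.40. Summed H3 mRNA was 530 FPKM in CFA6D replicate 6 against 80.7 to 127 FPKM elsewhere, and summed H4 mRNA was 1067 FPKM against 383 to 501 FPKM.

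**Figure D2:**
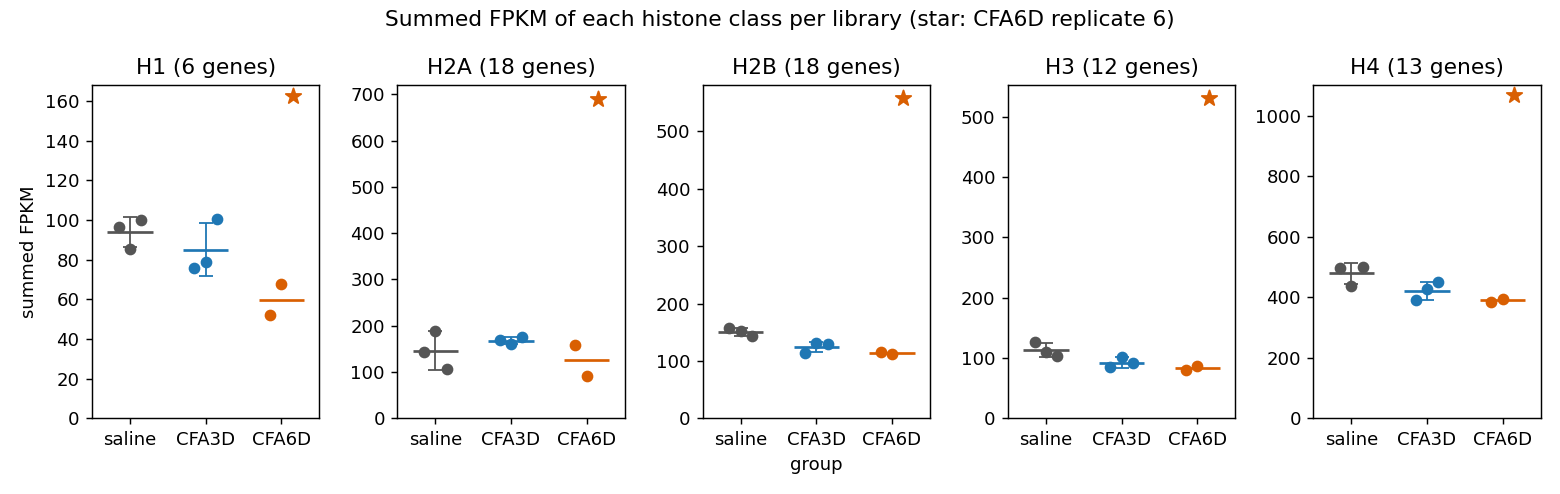
Summed FPKM of the members of each histone class in each library. Points are libraries, lines are group means with the SD as error bar for saline and CFA3D, the CFA6D line is the mean of replicates 4 and 5, and the star is CFA6D replicate 6. The star lies above all other points in all 5 classes, at 530 FPKM for H3 and 1067 FPKM for H4.

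The ratio also differed by the annotated end of the leading transcript. It was 7.54 in the median of the 35 tested genes whose leading form ended near the stem-loop and 1.86 in the 23 genes whose leading form ran past it. The 5 genes without a match had 4.70. The annotated end does not measure which form was present in the ganglion. Genes with long forms include several of the most abundant members, so form and level are not separated by these medians, and the part of each was not tested.

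**Figure D3:**
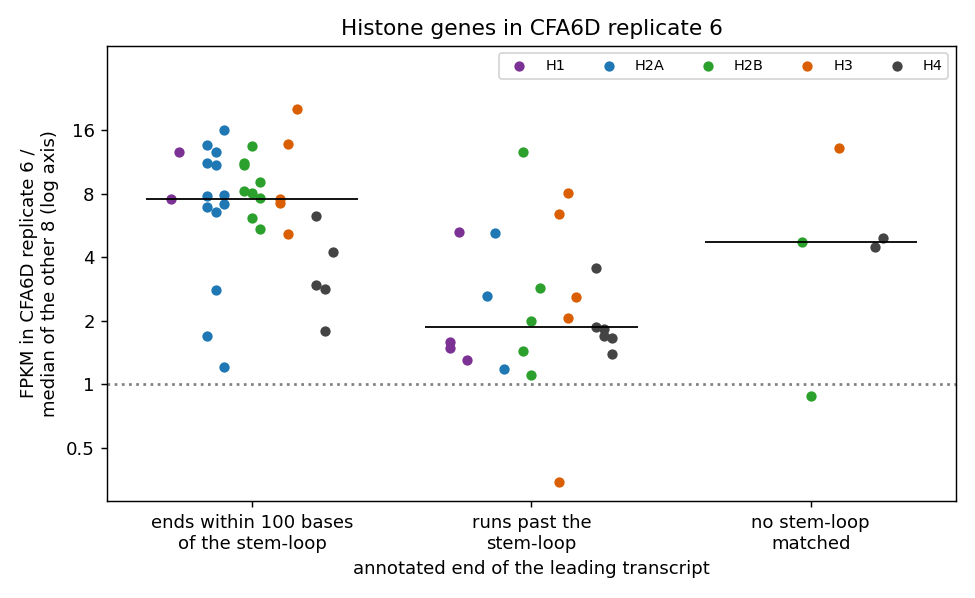
Ratio of the FPKM in CFA6D replicate 6 to the median FPKM of the other 8 libraries, on a log axis, for each tested member by the annotated end of its leading transcript. Lines are medians, 7.54 for forms that end near the stem-loop and 1.86 for forms that run past it. Hist2h2aa2, at 0 in that library, is counted in the median and is not drawn.

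Many genes of cell division were also highest in that library. In a list of 32 S phase and proliferation genes, CFA6D replicate 6 was highest in 26 (17.5% of all genes). It was highest and at least 2 times the median of the others in 14 (5.54% of all genes), and the rest of the list did not reach that level. Mki67, the gene of the proliferation antigen Ki-67, was measured at 6.50 FPKM there and at 0.39 to 0.73 FPKM in the other libraries. Top2a, which encodes DNA topoisomerase II alpha, was at 7.17 FPKM against 0.15 to 1.07 FPKM. Rrm2, a subunit of ribonucleotide reductase, was at 4.37 FPKM against 0.35 to 0.78 FPKM. The replication clamp gene Pcna was close to the others, with a ratio of 1.14. The list summed to 128 FPKM against 71.2 to 82.3 FPKM. The part of these genes, of the granule, osteoblast and B cell markers, and of the cells they mark in the histone values of this library was not tested. In bulk tissue, a change in the number of cells of a type cannot be told apart from a change in RNA per cell.

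On day 3, CFA ganglia showed slightly lower levels of most clustered histone genes than saline ganglia. The log2 fold change was negative in 57 of 63 members, against 35.4% of all genes tested, with a median of -0.19 over members and 0.05 over all genes. Within saline and CFA3D, the median member level had an SD of 0.13 in log2 between libraries. Members move together within a pool and some share reads, so counts of members are not counts of replicates. The same holds for the counts in the other comparisons below. A member was called when its p before adjustment was under 0.05 and its level differed by 1 or more on the log2(FPKM + 0.1) scale. By that rule 3 members were downregulated (0.267% of all genes were called lower) and none was upregulated (0.0745% of all genes). These were the H2B genes Hist1h2bq (-1.85, SE 0.66) and Hist1h2br (-1.86, SE 0.66) and the H3 gene Hist2h3c1 (-3.12, SE 0.60). No member passed after adjustment over all genes, with a smallest adjusted p of 0.997 in limma. No gene of the table passed in this comparison. Without saline replicate 3, 1 member was called (0.658% of all genes in either direction), and likewise 1 without CFA3D replicate 2 (0.292%). Without CFA6D replicate 6, which enters the estimate of the spread, 10 members were lower at an unadjusted p under 0.05 (1.06% of all genes) and 4 met the rule (0.391%), the added one being the H2B gene Hist1h2bl (-1.02).

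The groups were separate for some members. All 3 CFA3D libraries lay below all 3 saline libraries in 12 of 63 members, against 2.12% of all genes. An example is the H3 gene Hist1h3e, with 37.6, 31.7 and 32.7 FPKM in saline and 24.7, 27.5 and 29.6 FPKM in CFA3D. Another is the H4 gene Hist1h4f, with 25.3, 21.5 and 21.6 FPKM in saline and 15.2, 17.0 and 21.1 FPKM in CFA3D, where the closest libraries almost meet. Of the tested members, all 3 CFA3D libraries lay above saline in 1, Hist2h2be (7.01% of all genes). With 3 libraries against 3, a 2-sided permutation test of a single gene cannot give a p under 0.1, so none is given.

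On day 6, the comparison with saline turned on CFA6D replicate 6. With all 9 libraries, no member was called in either direction (0.596% of all genes were called). None had an unadjusted p under 0.05 in limma, against 8.21% of all genes higher and 2.85% lower at that level. The other CFA6D libraries also set this count, with 3 members called without replicate 5 (0.993% of all genes) and 2 without replicate 4 (1.48%). The smallest adjusted p was 0.483 in limma. The log2 fold change was positive in 46 of 63 members, against 54.4% of all genes, with a median of 0.38 over members and 0.03 over all genes. Without replicate 6 the sign turned. The log2 fold change was then negative in 58 of 63 members, against 50.7% of all genes, with a median of -0.33 over members and -0.0037 over all genes.

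In that fit of 8 libraries, 24 of 63 members were lower at an unadjusted p under 0.05, against 3.32% of all genes, and none was higher at that level, against 5.85% of all genes. Both remaining CFA6D libraries lay below all 3 saline libraries in 33 members (11.1% of all genes). The call rule with its minimum fold was met by 2 members (0.652% of all genes were called lower), Hist1h2bq (-2.20, SE 0.37) and Hist1h2br (-1.09, SE 0.46). The smallest adjusted p over members was 0.208 in limma, so no member passed the adjustment. The lone pair of CFA6D libraries shares its spread estimate with the other groups in this fit.

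**Figure D4:**
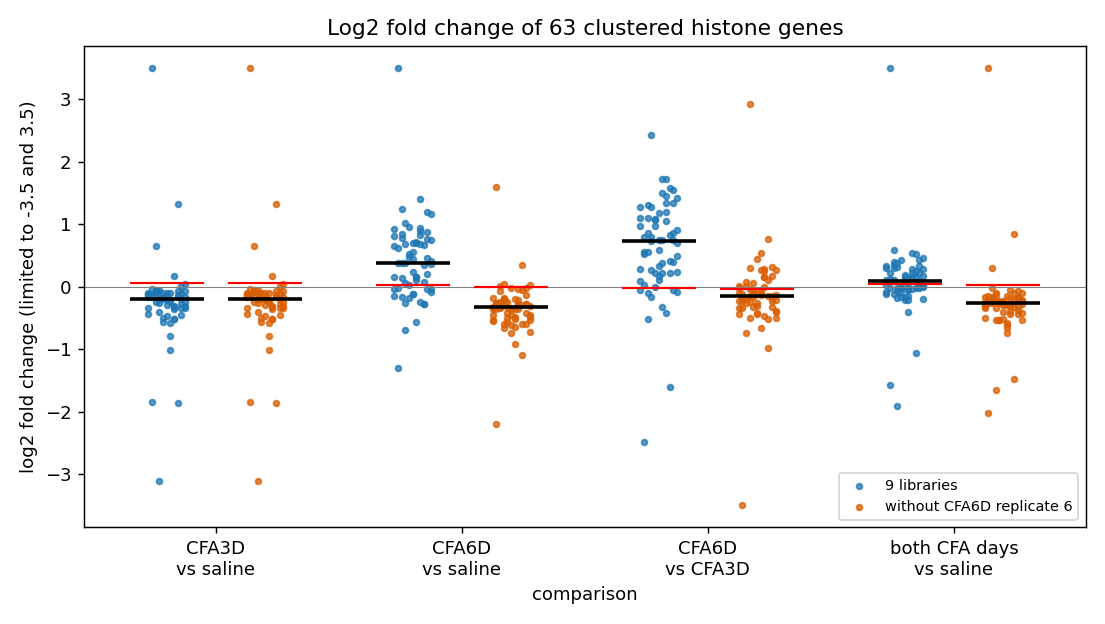
Log2 fold changes of the 63 tested members, fitted with all 9 libraries and without CFA6D replicate 6. Black lines are medians over members and red lines medians over all genes tested, and values beyond 3.5 in size are drawn at the edge. For CFA6D against saline the member median moves from 0.38 to -0.33 when replicate 6 is left out.

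The members that were lower on day 6 without replicate 6 came from every class. Hist1h1e was measured at 25.5, 23.4 and 30.6 FPKM in saline, 19.98, 19.5 and 27.7 FPKM in CFA3D, and 12.6, 15.3 and 28.3 FPKM in CFA6D replicates 4, 5 and 6. CFA6D replicates 4 and 5 were the lowest of all libraries, and replicate 6 lay within the saline range. Its log2 fold change without replicate 6 was -0.91 (SE 0.18), with an adjusted p of 0.26 in limma. The other abundant linker histone gene, Hist1h1c, was at 62.7, 56.2 and 62.8 FPKM in saline, compared with 33.9, 46.6 and 80.6 FPKM in CFA6D (-0.60, SE 0.16, without replicate 6). Of the H2A genes, Hist1h2ak was at 15.2, 13.4 and 12.98 FPKM in saline, compared with 8.56, 8.10 and 79.7 FPKM in CFA6D (-0.72, SE 0.16).

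Hist1h2bb, an H2B gene just short of the 20 most abundant members, had the lowest unadjusted p after Hist1h2bq. It was measured at 10.6, 10.9 and 9.37 FPKM in saline, 8.66, 9.26 and 9.02 FPKM in CFA3D and 6.85, 6.52 and 75.3 FPKM in CFA6D (-0.61, SE 0.11, without replicate 6). Each CFA library but replicate 6 was below each saline library. The H4 gene Hist1h4m, whose promoter is shown above, had 46.1, 45.05 and 45.3 FPKM in saline, 35.5, 43.9 and 40.3 FPKM in CFA3D, and 35.2, 32.6 and 124 FPKM in CFA6D (-0.43, SE 0.10, without replicate 6). In contrast, Hist3h2ba was at 20.6, 20.5 and 20.3 FPKM in saline, compared with 18.5, 18.6 and 22.7 FPKM in CFA6D, with a log2 fold change of -0.14 (SE 0.15) without replicate 6.

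By class and transcript form, the medians without replicate 6 were as follows. The median log2 fold change of CFA6D against saline was -0.38 for H1, -0.36 for H2A, -0.29 for H2B, -0.33 for H3 and -0.34 for H4. It was -0.33 for genes whose leading form ended near the stem-loop -0.34 for those whose leading form ran past it and -0.30 for the 5 without a match. Differences between these medians were not tested. Among the 20 most abundant members, 13 were lower at an unadjusted p under 0.05 in limma (3.32% of all genes). In 17 of them both CFA6D replicates 4 and 5 lay below every saline library (11.1% of all genes). These 20 were ranked by a mean that includes replicate 6.

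With both CFA days combined against saline, 2 members were downregulated in the fit of all 9 libraries (0.205% of all genes were called lower), Hist1h2bq (-1.58, SE 0.57) and Hist2h3c1 (-1.91, SE 0.52), with a smallest adjusted p of 0.362 in limma. Without replicate 6, 60 of 63 members had a negative log2 fold change (44.5% of all genes) and 26 had an unadjusted p under 0.05 with a negative sign (1.94% of all genes). The rule with its minimum fold was then met by 3 members (0.459% of all genes), namely Hist1h2bq, Hist1h2br and Hist2h3c1. The smallest adjusted p was 0.283. All 5 CFA libraries other than replicate 6 lay below all 3 saline libraries in 9 members (1.02% of all genes): Hist1h4m, Hist1h3e, Hist1h4f, Hist1h3f, Hist1h2bb, Hist1h4j, Hist1h2br, Hist1h2bq and Hist1h2ac. These comparisons use the same saline libraries as the single days and are no separate evidence.

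Abundant RNAs without a poly(A) tail, picked after their values were seen, were also lower in CFA3D than in saline, and some of them in CFA6D. The 7SK RNA gene Rn7sk was at 149653 to 176118 FPKM in saline, 134481 to 146379 FPKM in CFA3D and 119935 to 141019 FPKM in CFA6D. Rpph1, the RNA of ribonuclease P, was at 26879 to 30320 FPKM in saline, 24240 to 26538 FPKM in CFA3D and 22225 to 26334 FPKM in CFA6D. For both RNAs no CFA library reached the saline range, replicate 6 included. Rmrp was at 11864 to 13208, 10491 to 11270 and 11365 to 12459 FPKM, so its CFA6D range overlapped that of saline. These RNAs are kept by rRNA depletion and largely lost in poly(A) selection, and the same holds for histone mRNAs that end at the stem-loop. The study's methods describe rRNA depletion, whereas the labels name a kit that selects poly(A) RNA, and which of the 2 was used is not settled by the sources used here. The part of library preparation in the lower histone values was not tested.

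Markers of other cell types also differed between libraries, in part through single saline libraries. The summed FPKM of 4 skeletal muscle markers was 2.88 to 119 in saline, 0.940 to 7.05 in CFA3D and 0.770 to 45.1 in CFA6D. Their median log2 fold change was -2.94 in CFA3D, and with all 9 libraries none was called on either day. Without CFA6D replicate 6, 3 of the 4 were called lower on either day (0.391% of all genes in CFA3D and 0.652% in CFA6D). The pituitary markers, given above, had medians of -3.99 in CFA3D and -0.16 in CFA6D with all 9 libraries, and none was called. Without replicate 6 their median in CFA6D was 1.15, and 1 was higher at an unadjusted p under 0.05 in limma (5.85% of all genes). The 3 brown adipocyte markers summed to 7.64 to 52.2 in saline, 5.36 to 6.88 in CFA3D and 6.24 to 9.69 in CFA6D. The highest value was in saline replicate 2, and 1 of them was called lower in CFA3D (0.267% of all genes). The 5 erythroid markers had a median of -0.54 in CFA3D, and none had an unadjusted p under 0.05. The 4 satellite glia markers had a median of 0.04 in CFA3D and -0.26 in CFA6D with all 9 libraries. Without replicate 6 their median in CFA6D was -0.36. In that fit 1 was lower at an unadjusted p under 0.05 in limma (3.32% of all genes) and none was higher. With all 9 libraries, 1 of the 8 sensory neuron markers was higher at an unadjusted p under 0.05 in limma in CFA3D. In CFA6D there were 2 (8.21% of all genes). Without replicate 6, 3 were higher at that level on either day (5.85% of all genes in CFA6D), with medians of 0.20 in CFA3D and 0.28 in CFA6D. The share of all genes higher at that level is not given for CFA3D, so its counts cannot be weighed. The part of these cells in the lower histone values was not tested.

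Between the CFA days, 2 members were called higher on day 6 with all 9 libraries (0.639% of all genes), Hist1h2br (1.57, SE 0.66) and Hist2h3c1 (2.42, SE 0.60), with adjusted p of 0.67 and 0.57 in limma. Without replicate 6, Hist1h2br had a log2 fold change of 0.77 and was no longer called (adjusted p 0.83 in limma), and Hist2h3c1 had 2.93 and met the rule (adjusted p 0.66). Without CFA6D replicate 4 the count was 11 (1.7% of all genes were called in either direction), without replicate 5 it was 17 (1.42%), and without replicate 6 it was 1 (0.732%). The member median was 0.74, against -0.02 over all genes. Without replicate 6 it was -0.15, against -0.04 over all genes, and 9 members were lower at an unadjusted p under 0.05 (3.99% of all genes). Hist2h2be, an H2B gene with a long transcript, did not follow replicate 6. It was measured at 2.36, 2.37 and 2.39 FPKM in saline, 2.67, 2.94 and 2.45 FPKM in CFA3D, and 1.94, 1.89 and 2.11 FPKM in CFA6D. Its 3 groups did not overlap. CFA6D lay below CFA3D without overlap in this member alone (10.1% of all genes) and below saline in this member alone (5.49%). CFA6D was lower than CFA3D by a log2 fold change of -0.42 (SE 0.13, adjusted p of 0.61 in limma).

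The called members have near-identical partners. Of the 67 genes, 10 fall into 5 pairs with the same coding sequence: Hist1h2ao and Hist1h2ap, Hist1h2bq and Hist1h2br, Hist1h4m and Hist1h4n, Hist2h2aa1 and Hist2h2aa2, and Hist2h3c1 and Hist2h3c2. Windows of 75 bases that occur in no other annotated transcript made up a median of 58.0% of a member gene's windows. In 28 of the 67 genes they made up less than 50%, and in 6 genes, Hist1h1a and Hist1h1b among them, they made up 100%. The values of single genes within a pair are therefore uncertain.

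Hist1h2bq (chr13:21806612-21810197, minus strand) and Hist1h2br (chr13:21833743-21837530, plus strand) had 4.07% and 12.9% of unique windows. Hist1h2bq was measured at 3.94, 8.57 and 10.7 FPKM in saline, 2.41, 1.58 and 1.80 FPKM in CFA3D, and 1.42, 1.53 and 9.90 FPKM in CFA6D. Hist1h2br was measured at 3.95, 8.71 and 10.8 FPKM in saline, 2.42, 1.06 and 2.68 FPKM in CFA3D, and 3.69, 2.99 and 18.2 FPKM in CFA6D. In both genes the CFA3D libraries lay below saline without overlap. The transcripts behind these sums differed between libraries. The 381-base transcript of Hist1h2bq was at 8.57 and 10.7 FPKM in saline replicates 2 and 3 and at most 0.18 FPKM in the other 7 libraries, whereas its 1254-base transcript was at 3.68 FPKM in saline replicate 1, at 0 in saline replicates 2 and 3, and at 1.25 to 9.48 FPKM in the CFA libraries.

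Because FPKM divides by length, the same number of reads counts for more in the short transcript. The pair together gave 302, 202 and 337 approximate read pairs in saline, 255, 108 and 181 in CFA3D, and 130, 178 and 1115 in CFA6D. Per M read pairs this was 9.83, 6.73 and 8.37 in saline, 6.05, 2.73 and 5.03 in CFA3D, and 3.29, 4.72 and 29.4 in CFA6D. On that scale, too, the CFA3D libraries lay below saline, but the gap was smaller than in FPKM, where the pair had 15.5 ± 6.94 in saline and 3.98 ± 1.18 in CFA3D (SD, n = 3). Of 68 member transcripts tested singly, the only one called was the 381-base transcript of Hist1h2bq, lower in CFA3D (-3.74), in CFA6D (-3.58) and in both days together (-3.66), against 2.18%, 2.56% and 1.85% of all 66206 transcripts called in either direction.

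**Figure D5:**
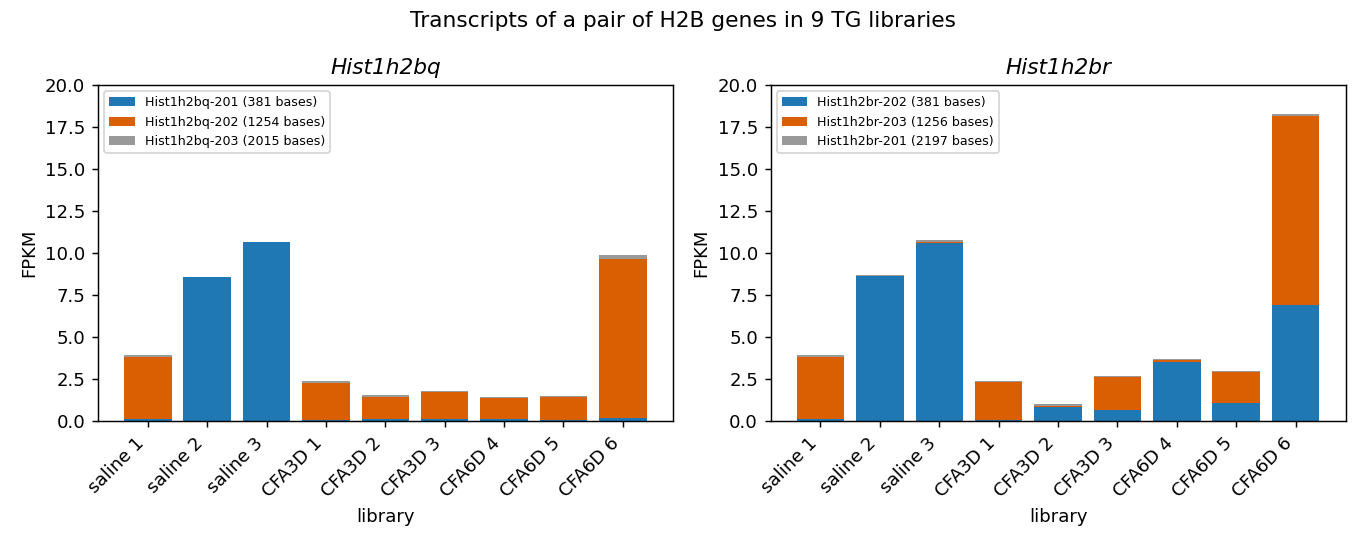
FPKM of the annotated transcripts of Hist1h2bq and Hist1h2br, stacked, in each of the 9 libraries. The short 381-base transcripts make up the bars of saline replicates 2 and 3, and the longer transcripts most of the bars of saline replicate 1. In CFA3D the longer transcripts lead, except for Hist1h2br in replicate 2.

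Hist2h3c1 (chr3:96246685-96248509, plus strand) has no unique window. It was measured at 3.62, 3.23 and 2.78 FPKM in saline, 0.535, 0.519 and 0.0388 FPKM in CFA3D, and 3.17, 2.45 and 0.904 FPKM in CFA6D. The CFA3D libraries lay below all others. Its partner Hist2h3c2 (chr3:96238108-96239127, minus strand), with 37.4% of unique windows, had 7.23, 6.09 and 5.87 FPKM in saline, 5.51, 6.89 and 4.79 FPKM in CFA3D, and 5.25, 5.02 and 45.9 FPKM in CFA6D, and its saline and CFA3D ranges overlapped (-0.17, SE 0.70). Added up, the pair had 9.61 ± 1.13 FPKM in saline and 6.09 ± 1.29 FPKM in CFA3D.

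The H2A gene Hist2h2aa1, paired with Hist2h2aa2, had the largest SD in FPKM of the members in each group. It was listed at 0 in saline replicates 1 and 3 and in CFA6D replicate 5, at 71.0 FPKM in saline replicate 2, at 39.0 to 72.8 FPKM in CFA3D, at 73.0 FPKM in CFA6D replicate 4 and at 149 FPKM in CFA6D replicate 6. Hist2h2aa2 did not take up the missing reads in those libraries, with at most 3.86 FPKM in any library. Unique windows were 11.1% for the former and 0% for the latter. The summed H2A values, which include this gene, were 143, 189 and 106 FPKM in saline, 170, 159 and 175 FPKM in CFA3D, and 159, 91.3 and 690 FPKM in CFA6D. A value listed at 0 for it was not read as absence of the mRNA.

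Genes that act with the clustered histones were compared from 4 lists. With all 9 libraries, none of the genes in these lists was called in any of the 4 comparisons in limma. At an unadjusted p under 0.05 in CFA6D against saline, 1 variant gene, 2 processing genes, 3 chaperone genes and 1 S phase gene were higher and 1 variant gene was lower. Over all genes, 8.21% were higher and 2.85% lower at that level, and the lists held 11, 17, 20 and 32 tested genes. In the list of replication-independent histone variants, 11 of 14 genes found were tested. Its most abundant genes were H3f3b, which encodes H3.3 (66.0 ± 10.9 FPKM in saline, 65.1 ± 3.31 in CFA3D and 50.7 ± 4.16 in CFA6D), H2afz (44.4 ± 10.3, 34.99 ± 4.46 and 41.5 ± 5.79) and the linker variant H1f0 (34.8 ± 4.68, 34.1 ± 3.38 and 32.3 ± 0.888). The variants highest in CFA6D replicate 6 by at least 2 times were H2afx, at 26.3 FPKM against 7.26 to 8.93 FPKM, and the centromere histone gene Cenpa, at 3.34 FPKM against 0.64 to 1.46 FPKM. H2afx is also the variant gene with a stem-loop match.

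For histone mRNA processing and transcription, 17 genes were tested, with Sympk, Cpsf3 and Upf1 the most abundant. Sympk, a scaffold of the cleavage complex, had 18.4 ± 1.99 FPKM in saline and 23.4 ± 1.67 FPKM in CFA6D, a log2 fold change of 0.35 with an adjusted p of 0.211 in limma. Slbp, the gene of the stem-loop binding protein, was at 7.31 FPKM in CFA6D replicate 6 and 5.07 to 6.04 FPKM elsewhere. All 20 histone chaperone genes were tested. The most abundant were Npm1 (47.9 ± 3.94 FPKM in saline), Hjurp (40.8 ± 9.30) and Nap1l4 (35.9 ± 1.65). Asf1b and Chaf1b, which deliver new histones to replicating DNA, had ratios of 3.98 and 3.23 in CFA6D replicate 6 and were the chaperone genes highest there by at least 2 times. Of the S phase list the most abundant genes were Pcna (19.0 ± 2.22 FPKM in saline), Mcm7 (7.57 ± 0.403) and Tk1 (5.15 ± 0.301). Without replicate 6, the S phase list had a median log2 fold change of -0.09 in CFA6D against saline. In that fit 1 of its genes was called lower (0.652% of all genes). At an unadjusted p under 0.05 in limma, 2 were lower (3.32% of all genes) and 1 was higher (5.85%). Mki67 (-0.06) and Top2a (-0.11) had log2 fold changes close to 0.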

How the data were processed

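RNA of trigeminal ganglia was measured in 9 libraries, 3 per group. The authors deposited FPKM values per transcript. Per the methods, total RNA was depleted of rRNA, reads were trimmed with Trimmomatic and mapped to GRCm38, and CLC Genomics Workbench gave expression levels. The labels instead name a TruSeq RNA kit that selects poly(A) RNA, and the submitters' processing notes name Bowtie 0.12.2 and an older mouse build, with no role. The step that gave FPKM is not given in the sources used here.

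Of 102122 transcripts in the mRNA table, 101539 were matched by name to GENCODE M21. FPKM was summed per gene. The 16110 gene sums whose mean reached 0.1 FPKM were tested on the scale log2(FPKM + 0.1), using limma 3.58.1 (R 4.3.3) and 1 linear model of the 3 groups with a mean trend. Benjamini-Hochberg adjustment ran over all gene sums tested. The fit was checked on simulated data. Approximate read pairs were derived by multiplying FPKM by length and dividing by the step of the low values. Unique windows were counted against all GENCODE transcripts. Other steps used Python 3.11.15 with numpy 2.4.6, pandas 2.3.3, matplotlib 3.10.9 and pysam 0.24.0.

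Named members were the 20 with the highest mean and those called in any comparison, and, of each other list, called genes and the 3 with the highest mean. Members named for their ratio in CFA6D replicate 6, for separate groups or for a low value, and other genes of the lists, were chosen after their values were seen. The members and lists were chosen with earlier results of these data known. All per-sample columns were mapped (0 left out). Alternatives were other pseudocounts, filters, scalings and units, a replicate block, and leaving out each library. The lncRNA and circular RNA data were not analysed here.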

Additional observations from a re-analysis of the deposited data

Results flagged for a closer look

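The difference between the CFA days was tested for all 63 members, and 2 met the call rule, both with near-identical partners and neither after adjustment. Hist1h2br was higher in CFA6D than in CFA3D by a log2 fold change of 1.57 with all 9 libraries, and Hist2h3c1 by 2.42. Without CFA6D replicate 6 the value of Hist1h2br was 0.77 and no longer called, and that of Hist2h3c1 was 2.93. Hist1h2br also lost the call under 8 other alternatives. Outside the protein-coding table, the unprocessed histone pseudogene Hist1h2aj was at 6.42 FPKM in CFA6D replicate 6, against 0.70 to 1.94 FPKM in the other libraries.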

How the results depend on the processing

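Alternatives changed the number of members called in 4 comparisons. Shares over all genes are given above for some of the libraries left out and are not given for the other alternatives. A setting can change the calls of all genes alike, so these counts are no result about the members. For CFA3D against saline (3 members called), 5 were called when only these groups were fitted, 5 with a replicate block, 1 on fragments per M (chosen after seeing the data) and 0 with the transcript of highest mean in place of the gene sum. Leaving out 1 library gave 1 to 4, with 1 without saline replicate 3 or CFA3D replicate 2. For CFA6D against saline (0 called), leaving out 1 library gave 0 to 3, with 3 without CFA6D replicate 5. For CFA6D against CFA3D (2 called), the count was 1 with a pseudocount of 1, without a filter, with only these groups and on fragments per M, and 0 with the highest transcript. Leaving out 1 library gave 1 to 17, with 11 without CFA6D replicate 4, 17 without replicate 5 and 1 without replicate 6, saline replicate 2, CFA3D replicate 1 or CFA3D replicate 2. For both days (2 called), it was 1 on fragments per M, 0 with the highest transcript and 1 to 3 with 1 library left out, with 1 without saline replicate 3.

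The member median ranged with 1 library left out from -0.25 to -0.12 (CFA3D), from -0.33 to 0.90 (CFA6D against saline), from -0.15 to 1.19 (CFA6D against CFA3D) and from -0.27 to 0.29 (both days). It turned negative without CFA6D replicate 6 in the last 3, and for both days also without saline replicate 3. For the other lists (0 called), counts were 1 for variants with a pseudocount of 0.01 or quantile scaling, and 1 for the S phase list with a pseudocount of 0.01. Without a fold minimum they were 2 for variants, 3 for processing, 5 for chaperones and 2 for S phase. With the highest transcript they were 1 for chaperones and 1 for S phase. Leaving out 1 library gave 0 to 1, 0 to 0, 0 to 0 and 0 to 3. Shares over all genes are not given beside these list counts, so they are no result about the lists. Hist1h2bq reversed with the highest transcript, to 2.41 (CFA3D) and 2.69 (both days), since that is the 1254-base form. Of 1679 alternatives for 23 named members, 1638 kept the call, with 109 sign changes among uncalled values, 24 lost it, 15 gained it and 2 reversed.

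Same-numbered saline and CFA3D libraries did not deviate together (correlations 0.088, -0.078 and 0.030). With 3 libraries per group, these values cannot exclude that the numbers pair samples or that a batch was shared. No paired analysis was possible for CFA6D because its numbers, 4 to 6, are not shared. Each group has 3 pools, and FPKM without counts gives no interval for single values.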

Other observations

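Among other noncoding histone-related genes, the pseudogene Hist3h2bb-ps had 3.57 to 7.72 FPKM and Hist1h2al 0.12 to 0.41 FPKM over the 9 libraries. The U7 RNA gene Rnu7 was at 0.04 to 0.06 FPKM.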
